A study of Homo sapiens with 3 samples.

Results

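The genes described here are those of MHC class I antigen presentation, measured in the human cervical carcinoma cell line C33A. The list holds 9 genes, HLA-B, HLA-C, HLA-E, B2M, TAP1, TAP2, TAPBP, NLRC5 and ERAP1. Members were found by their symbols in the annotation of the array's probe sets, a probe set being the group of short DNA probes that reports 1 transcript. 6 members (B2M, TAP1, TAP2, TAPBP, NLRC5 and ERAP1) had 12 probe sets of their own and are among 18417 genes so measured. HLA-B and HLA-C were reached only through 6 probe sets shared with another gene, and HLA-E is not analysed here. The members therefore rest on 18 of 33297 probe sets.

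RNA came from 3 separate cultures of C33A cells in exponential growth that received no treatment, and each was hybridized to 1 Affymetrix Human Gene 1.0 ST array. There is 1 group and no control condition, so no level could be set against another state of the cells. C33A is a single established line without human papillomavirus. Values are log2 intensities, so 1 unit is a doubling of the signal.

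MHC class I molecules carry peptides from the inside of a cell to its surface, where CD8 T cells read them. The heavy chain, encoded by genes such as HLA-B and HLA-C, pairs with beta-2 microglobulin (B2M). Peptides made by the proteasome enter the endoplasmic reticulum through the TAP1/TAP2 transporter, are trimmed by the aminopeptidase ERAP1 and are loaded with the help of tapasin (TAPBP). NLRC5 is the transactivator that sits with the RFX, CREB and NF-Y factors on class I promoters, interferon gamma is the best known inducer of the whole set, and reduced surface class I is a common feature of cervical carcinomas.

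The promoters of these genes are shown first, since they carry the shared elements through which the set is known to be switched on. RefSeq windows on build GRCh38.p14 were at hand for 7 of the 9 members, all but HLA-E and NLRC5. The 250 bases before the annotated start are given for HLA-B (chr6:31357180-31357429, minus strand), HLA-C (chr6:31272093-31272342, minus strand), B2M (chr15:44711267-44711516, plus strand), TAP1 (chr6:32853705-32853954, minus strand) and TAPBP (chr6:33314079-33314328, minus strand), chosen as the heavy chain genes, the light chain gene and the members of highest level in peptide transport and loading. All lie upstream of their gene. Capitals mark matches, on either strand, to 5 short motifs described after the sequences.
HLA-B: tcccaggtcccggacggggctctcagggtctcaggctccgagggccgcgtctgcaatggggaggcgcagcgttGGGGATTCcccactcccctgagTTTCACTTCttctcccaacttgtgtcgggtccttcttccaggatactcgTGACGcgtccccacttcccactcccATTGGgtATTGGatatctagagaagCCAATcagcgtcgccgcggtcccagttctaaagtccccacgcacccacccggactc
HLA-C: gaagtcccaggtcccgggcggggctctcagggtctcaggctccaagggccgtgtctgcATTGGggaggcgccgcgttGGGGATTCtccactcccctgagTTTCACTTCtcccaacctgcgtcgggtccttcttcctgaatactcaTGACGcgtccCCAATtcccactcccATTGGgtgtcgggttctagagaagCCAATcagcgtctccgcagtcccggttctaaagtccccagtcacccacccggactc
B2M: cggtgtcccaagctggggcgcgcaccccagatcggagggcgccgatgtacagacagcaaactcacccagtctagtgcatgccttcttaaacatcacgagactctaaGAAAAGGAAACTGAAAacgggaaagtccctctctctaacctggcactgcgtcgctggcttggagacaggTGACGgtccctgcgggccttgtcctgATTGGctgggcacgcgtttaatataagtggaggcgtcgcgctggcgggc
TAP1: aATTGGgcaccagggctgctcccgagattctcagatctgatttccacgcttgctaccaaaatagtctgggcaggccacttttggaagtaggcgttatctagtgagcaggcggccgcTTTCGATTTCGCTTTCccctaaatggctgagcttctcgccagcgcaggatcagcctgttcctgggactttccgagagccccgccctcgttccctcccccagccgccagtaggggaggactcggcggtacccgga
TAPBP: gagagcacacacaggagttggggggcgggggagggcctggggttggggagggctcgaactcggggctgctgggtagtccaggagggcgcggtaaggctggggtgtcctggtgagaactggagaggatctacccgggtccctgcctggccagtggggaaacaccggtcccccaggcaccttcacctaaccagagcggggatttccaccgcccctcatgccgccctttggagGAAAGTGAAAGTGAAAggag

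The motifs were the core of the interferon-stimulated response element (TTTC, any 2 bases, TTTC), a shorter form of it (TTTC, any 2 bases, TTC), the core of the cyclic AMP response element, or CRE (TGACG), the CCAAT box to which NF-Y binds (CCAAT) and the start of the kappaB element (GGGGATTC), each searched on both strands. TAP1 and ERAP1 have 2 windows each, and a match in either was counted, for these as for all genes. The shorter interferon form was added after the heavy chain windows had been read, so its matches in HLA-B and HLA-C were fixed by that choice. The core lay in the windows of 4 of 7 members, namely B2M, TAP1, TAP2 and TAPBP, against 3.71% of the 27305 genes with a window. The shorter form lay in 4 of 7, HLA-B, HLA-C, TAP2 and ERAP1, against 8.0% of genes. At least 1 of the 2 forms was present for all 7 members with a window and for 11.0% of genes. Counts that include the shorter form describe the windows and cannot show enrichment, since that form was taken from members. In B2M, TAP1 and TAPBP, 2 matches to the core overlapped, starting 144 and 138 bases before the start of B2M, 134 and 128 before TAP1, and 20 and 14 before TAPBP. The CRE core was found for 4 of 7 members (HLA-B, HLA-C, B2M and TAP2; 24.9% of genes) and the CCAAT box for 5 of 7 (HLA-B, HLA-C, B2M, TAP1 and ERAP1; 37.0% of genes). The kappaB start was found for HLA-B and HLA-C, against 0.952% of genes. Only this exact sequence was searched, and other forms of the kappaB element were not. Its count therefore describes the windows and cannot show that the other members lack such an element. These are matches of letters, and binding was not measured here.

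The windows of HLA-B and HLA-C were alike, with 226 identical bases over 254 aligned columns (89.0%). In both, the kappaB start, the shorter interferon form and the CRE core followed one another in the same order, at 177, 155 and 106 bases before the start of HLA-B and at 173, 151 and 105 before HLA-C. The array did not separate these genes, which share probe sets. Their transcripts were not compared here.

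Whether a gene was detected was judged against 480 genes that few cell types transcribe, those of the beta-defensins, the keratin-associated proteins and the receptors for odours and taste, whose median level was 4.07. Their 95th percentile, 6.41, is called the silent-family bound, and 56.5% of all genes had a mean above it. The 3 arrays correlated at r = 0.993 to 0.994 over probe sets, and the median gene stood at 6.91 with a median SD of 0.08 between cultures. Among markers of the labelled cell type, 1 of 5 epithelial genes passed the bound, KRT18 at 7.75 ± 0.11 (SD, n = 3), while KRT8, KRT19, EPCAM and CDH1 were between 4.52 and 5.92. Markers of other cell types passed the bound in 2 of 9 cases for leukocytes (PTPRC at 8.82 ± 0.11 and CD68 at 6.90 ± 0.06), in 0 of 5 for endothelium and in 2 of 6 for fibroblasts (COL3A1 at 11.36 ± 0.06 and COL1A1 at 7.24 ± 0.14). The summed intensity of the leukocyte list was 9.63 to 9.76 on the log2 scale over the arrays, that of the endothelial list 6.82 to 6.84, that of the fibroblast list 11.46 to 11.56 and that of the epithelial list 8.51 to 8.65. The leukocyte list ran from MS4A1 at 3.51 to PTPRC at 8.82. In the fibroblast list, LUM (2.52), DCN (3.10), PDGFRB (5.55) and COL1A2 (6.33) were below the bound. The lists differ in their number of genes, and a sum is weighted to its highest gene, such as COL3A1. The sums were therefore not compared with one another. The part of other cells in the levels below was not tested.

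C33A cells carried signal for the heavy and light chains, the peptide transporter and tapasin, whereas NLRC5 stayed within the range of the silent families. 5 of the 6 members with own probe sets had a mean above the bound (B2M, TAP1, TAP2, TAPBP and ERAP1), against 56.5% of all genes. The same count, 5 of 6, held when the bound of each array had to be passed on all 3 arrays, against 55.2% of genes. 4 of 6 (B2M, TAP1, TAP2 and TAPBP) were in the upper tertile of all genes, which starts at 8.14 and holds 33.3% of them. With 6 genes, these counts describe the members and were not tested.

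**Figure D1:**
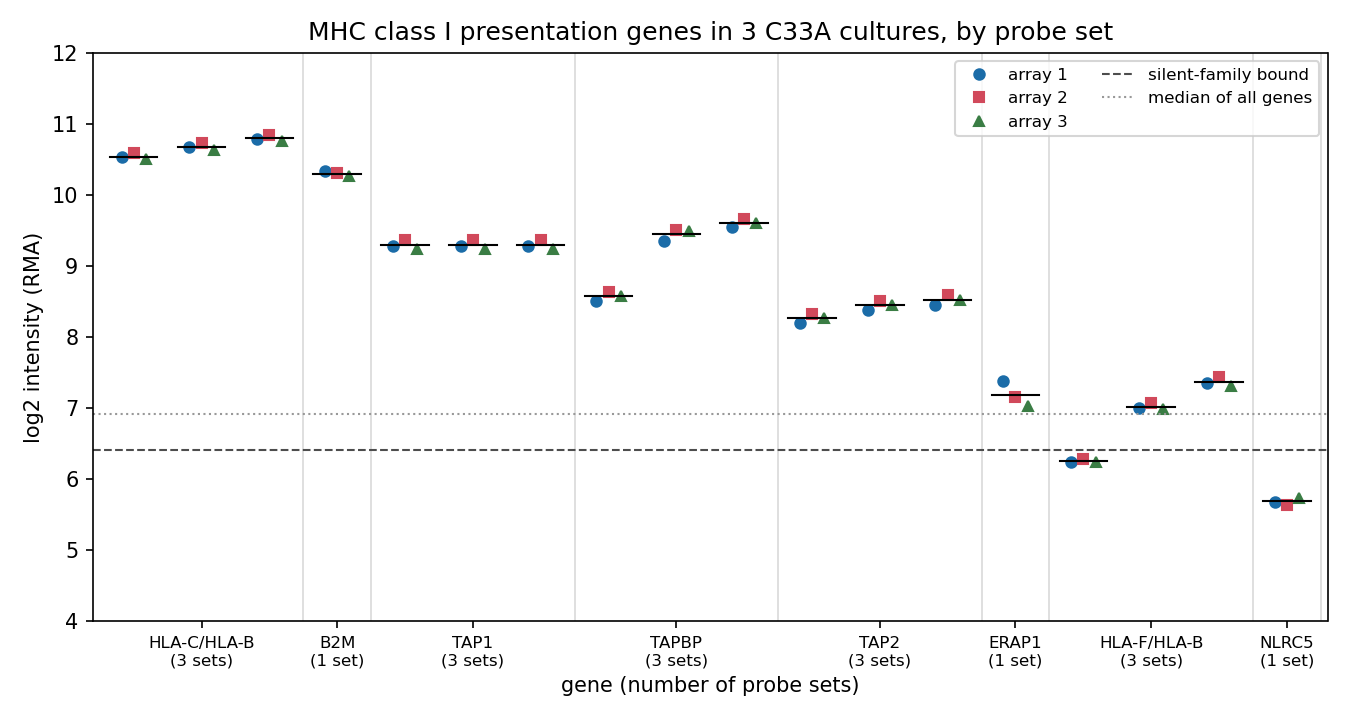
Log2 intensity of every probe set of the class I genes on each of the 3 arrays, with black bars for the mean of the probe set, a dashed line at the silent-family bound (6.41) and a dotted line at the median of all genes (6.91). The HLA-C/HLA-B probe sets and B2M lie above 10, NLRC5 lies below the bound on all 3 arrays, and the array with the highest value changes from gene to gene.

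The heavy chains gave the highest signal of the set. The 3 probe sets annotated to HLA-C and HLA-B together, averaged per array, read 10.67, 10.72 and 10.63 on arrays 1, 2 and 3 (mean 10.67 ± 0.04, SD, n = 3). This was above 96.1% of genes. The probe sets differed by little among themselves, with means from 10.54 to 10.80. How much of this signal belongs to HLA-B and how much to HLA-C cannot be told apart.

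HLA-B is also named on 3 probe sets that it shares with HLA-F, a class I heavy chain gene of restricted expression. They read 6.86, 6.93 and 6.84 on the 3 arrays (6.88 ± 0.04), close to the median gene. Their means were 6.26, 7.01 and 7.36, so that 1 of the 3 was below the bound and the other 2 were above it. The probe sets annotated to HLA-B thus fell into a high and a low set, according to the gene with which they were shared.

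B2M, the light chain common to all class I molecules, read 10.33, 10.31 and 10.27 (10.30 ± 0.03), a level above 93.9% of genes. The 3 arrays lay within 0.06 of each other. The SD was smaller than the median SD of its decile of level (1 of 10 equal groups of genes ranked by mean), 0.04.

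The transporter genes followed. TAP1 read 9.29, 9.36 and 9.24 (9.30 ± 0.06) and stood above 83.7% of genes. Its 3 probe sets carried identical values on every array and count as 1 measurement. TAP2, the other subunit of the transporter, read 8.34, 8.48 and 8.42 (8.41 ± 0.07), above 70.8% of genes. Its probe sets gave means of 8.26, 8.45 and 8.52, each in the upper tertile. On each array TAP1 was above TAP2, by 0.94, 0.89 and 0.83.

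TAPBP, which encodes the tapasin that bridges the transporter and the empty class I molecule, read 9.14, 9.27 and 9.22 (9.21 ± 0.07), above 82.6% of genes. Its 3 probe sets stood apart, with means of 8.57, 9.45 and 9.61. The gap of 1.03 between probe sets of this gene far exceeds its SD between cultures. Which exons or transcript forms each probe set covers was not analysed here. All 3 were above the bound.

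ERAP1, the aminopeptidase that trims peptides in the endoplasmic reticulum, read 7.38, 7.16 and 7.02 (7.19 ± 0.18), in the middle tertile and above 53.4% of genes. It passed the bound on each array, by 0.78 on average. Array 1 was high and array 3 low, with a range of 0.35, the widest among the members. Its SD of 0.18 stood beside a median of 0.08 for its decile, in which 92.5% of genes had a smaller SD. ERAP1 has 1 probe set, so no second one was at hand to set beside this spread.

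NLRC5 read 5.68, 5.64 and 5.74 (5.69 ± 0.05), which put it 0.72 below the silent-family bound and in the lower tertile. It was below the bound of each array. The position was not at the bottom of the scale: 89.4% of the silent-family genes were lower still. It also turned on how the bound was drawn. At the 95th percentile of the olfactory receptor genes alone, which is 5.44, NLRC5 passed and the count was 6 of 6. With the 99th percentile of all silent families, 7.85, ERAP1 was lost as well and the count was 4 of 6. For NLRC5 there is 1 probe set, and absence of the transcript cannot be read from it.

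**Figure D2:**
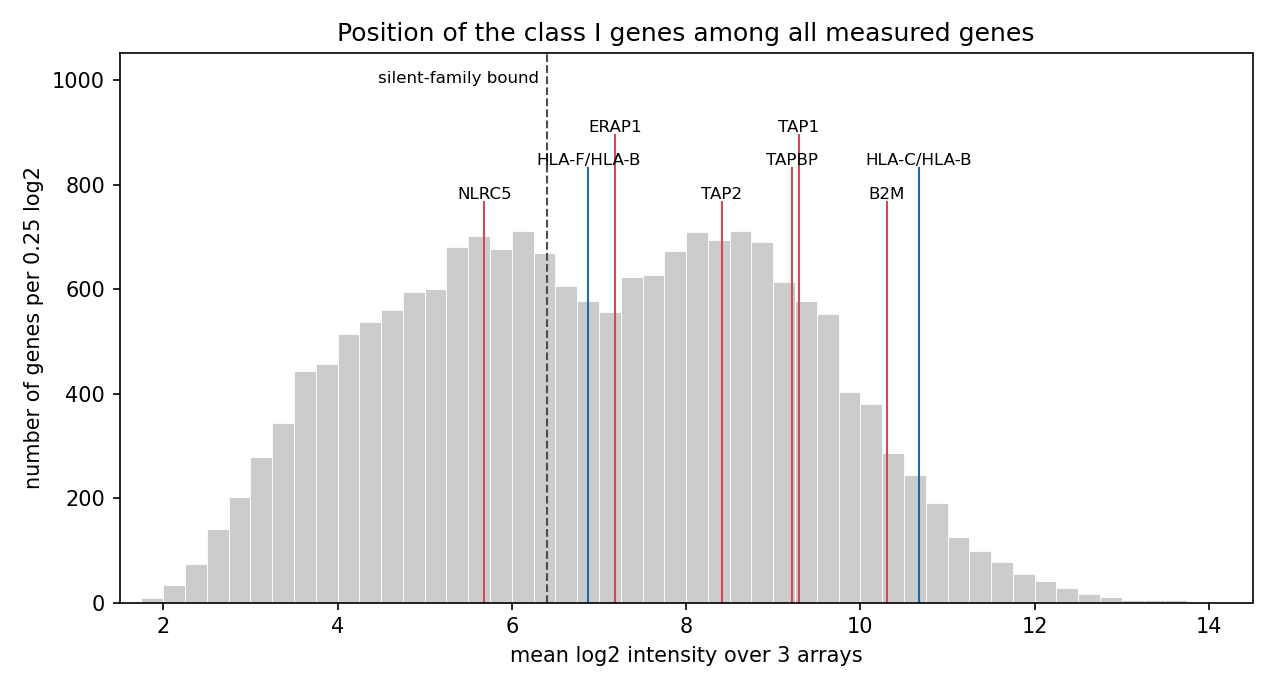
Number of genes per 0.25 log2 of mean intensity over 3 arrays (grey bars, 18417 genes), with the mean of each class I gene (red lines) and of the shared HLA probe sets (blue lines). HLA-C/HLA-B (10.67) and B2M (10.30) lie in the upper tail, TAP1, TAPBP and TAP2 at or above the upper hump, and NLRC5 (5.69) left of the dashed silent-family bound at 6.41.

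Ordered by intensity, the units ran from HLA-C/HLA-B through B2M, TAP1, TAPBP, TAP2 and ERAP1 to HLA-F/HLA-B and NLRC5. Each step had the same sign on 3 of 3 arrays. The order was drawn from the means of these same arrays, so this is no separate support for it. HLA-C/HLA-B exceeded B2M by 0.37 ± 0.04 (SD over arrays, n = 3), and B2M exceeded TAP1 by 1.01 ± 0.05. TAP1 and TAPBP were neighbours, 0.15, 0.09 and 0.02 apart on the 3 arrays (0.09 ± 0.06), a step close to the spread between cultures. This step turned to -0.31 when the highest probe set of each gene was taken in place of the mean, so these genes have no settled order. TAPBP exceeded TAP2 by 0.80 ± 0.01 and TAP2 exceeded ERAP1 by 1.22 ± 0.23. ERAP1 exceeded HLA-F/HLA-B by 0.31 ± 0.18, but this step too turned, to -0.18, with the highest probe set, so their order is not settled either. NLRC5 came last, and no size is given for its step, since it was below the bound. These steps compare intensities of different probes, which bind with different strength, and are not ratios of transcript numbers. An exact two-sided sign-flip permutation test over 3 arrays cannot give a p below 0.25, so none was run.

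Between cultures, no array was highest for all members. The highest of the 3 values was on array 2 for 3 of 6 members, TAP1, TAP2 and TAPBP, against 32.5% of genes. B2M and ERAP1 were highest on array 1 and NLRC5 on array 3. All 6 shared HLA probe sets were also highest on array 2. Other genes of the MHC were divided. HLA-DMB, HLA-DOB, HLA-DQA1 and MICB were highest on array 2. Array 1 was highest for PSMB9, HLA-DMA, HLA-DOA and HLA-DPA1, and array 3 for PSMB8, MICA, HLA-DPB1 and HLA-DQB1. In the deciles 6 to 9 of level, array 2 was highest for 39.0% to 43.4% of genes, and the differences involved were small, 0.12 for TAP1, 0.13 for TAP2 and 0.13 for TAPBP between the highest and lowest array.

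**Figure D3:**
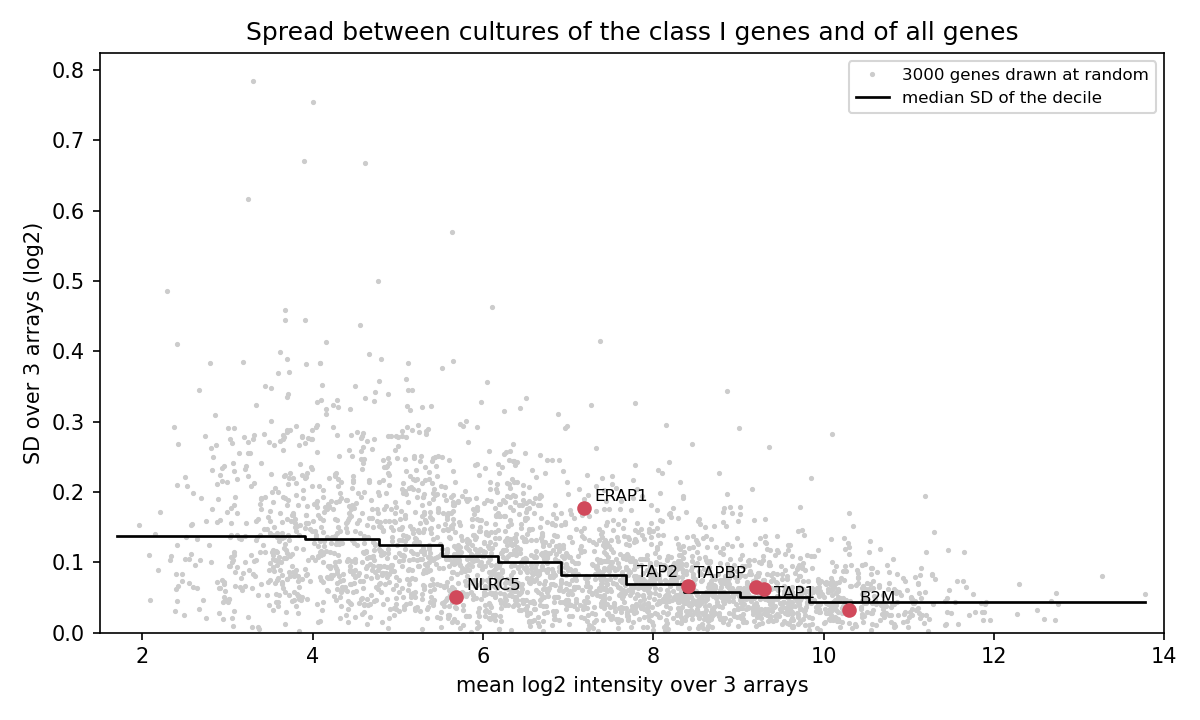
SD over the 3 arrays against mean log2 intensity for 3000 genes drawn at random (grey), the median SD of each decile of level (black steps) and the 6 class I genes with own probe sets (red). ERAP1 (0.18) lies well above the median of its decile (0.08), NLRC5 (0.05) lies below its own (0.11), and the other 4 lie near the line.

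Of the wider loading machinery, 6 of 7 measured genes passed the bound and 6 were in the upper tertile, with a list median of 9.30 beside 6.91 for all genes, of which 56.5% and 33.3% did. 4 of the 7 are the members B2M, TAP1, TAP2 and TAPBP already described, and of the other 3 genes 2 passed. The lectin chaperones that hold the new heavy chain were the highest, CANX (calnexin) at 12.30 ± 0.03 and CALR (calreticulin) at 11.62 ± 0.03. TAPBPL, the tapasin-related editor of bound peptides, was the exception. It read 5.66, 5.59 and 5.44 (5.56 ± 0.11), below the bound, while its relative TAPBP was above the bound on every array. This turned on the bound as well. At the 95th percentile of the olfactory receptor genes alone, 5.44, TAPBPL passed and the count was 7 of 7. PDIA3, the disulfide isomerase of the loading complex, shares its probe sets with PDIA3P1, and these stood at 12.18 and 12.24. Among the trimming enzymes, ERAP2 read 4.33, 4.23 and 3.70 (4.09 ± 0.34), close to the median of the silent families. Of the 2 measured trimming genes, ERAP1 alone was above the bound.

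The proteasome genes were split. The constitutive catalytic subunits PSMB5, PSMB6 and PSMB7, which are present in every cell, read 11.32 ± 0.01, 11.36 ± 0.04 and 11.45 ± 0.01. Their interferon-inducible counterparts, which replace them in the immunoproteasome, had intensities of 4.43 ± 0.10 for PSMB8, 7.28 ± 0.08 for PSMB9 and 8.05 ± 0.06 for PSMB10. PSMB8 read 4.42, 4.34 and 4.54 and was the only gene below the bound in its list of 5. Of all genes, 56.5% were above the bound. With the bound at the 99th percentile of the silent families, 3 of the 5 passed. The PA28 activator genes PSME1 (8.93 ± 0.06) and PSME2 (8.64 ± 0.05) were in the upper tertile, which holds 33.3% of all genes.

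PSMB8 and PSMB9 lie beside the transporter genes in the class II region of the MHC. In the order of protein-coding genes in the RefSeq table, TAP2, PSMB8, TAP1 and PSMB9 follow one another, between HLA-DOB on one side and HLA-DMB on the other. Along this stretch TAP2 (8.41), TAP1 (9.30) and PSMB9 (7.28) were above the bound and PSMB8 (4.43) was below it, as read by different probe sets. TAP1 and PSMB9 point away from each other from starts that are 488 bases apart. On the 3 arrays the TAP1 intensity exceeded that of PSMB9 by 1.96, 2.18 and 1.92 (2.02 ± 0.14), a difference between probes and not a ratio of transcripts. The class II genes on both sides were below the bound.

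**Figure D4:**
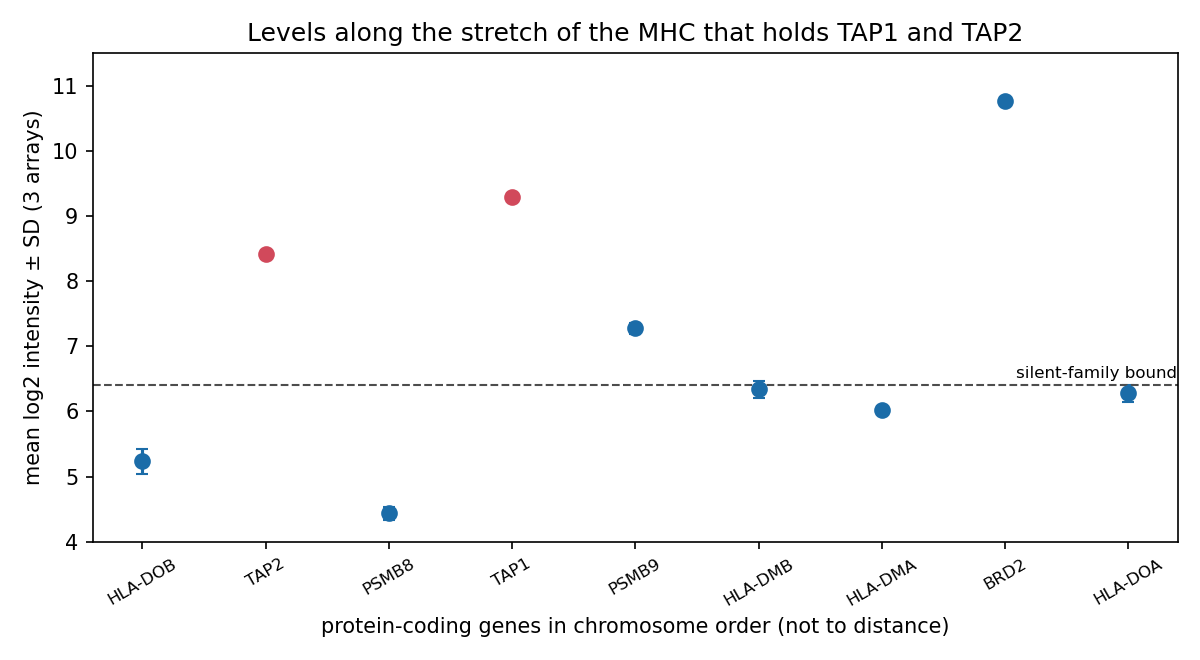
Mean log2 intensity ± SD over 3 arrays of 9 protein-coding genes in their order along the MHC class II region (not to distance), with TAP1 and TAP2 in red, other genes in blue and the silent-family bound (6.41) dashed. TAP2 and TAP1 stand above the bound on either side of PSMB8 (4.43), the 4 genes of class II presentation (HLA-DOB, HLA-DMB, HLA-DMA and HLA-DOA) lie below it, and BRD2 is the highest of the 9.

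Of the regulators of class I promoters, 7 of 9 measured genes passed the bound, against 56.5% of all genes. The 2 that did not were NLRC5 and its class II relative CIITA, at 6.03, 5.85 and 5.76 (5.88 ± 0.14). With the bound at the 90th percentile of the silent families CIITA passed (8 of 9), and with olfactory receptor genes alone both did (9 of 9). The RFX complex, which binds the X box, had RFX5 at 9.71 ± 0.04, RFXANK at 9.79 ± 0.08 and RFXAP at 7.55 ± 0.06. CREB1, which binds the CRE core, was the highest of the list at 10.06 ± 0.05. The NF-Y subunits that bind CCAAT boxes read 9.58 ± 0.12 (NFYA), 8.16 ± 0.09 (NFYB) and 9.56 ± 0.08 (NFYC). All 5 NF-kappaB subunits passed the bound, from RELB at 7.34 ± 0.14 to RELA at 9.66 ± 0.02.

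The receptors and kinases of the interferon gamma pathway were measured at a range of levels. All 7 measured genes had a mean above the bound, against 56.5% of all genes, with a list median of 7.18. In the upper tertile, which holds 33.3% of genes, were 2, JAK1 (9.23 ± 0.08) and the receptor chain IFNGR1 (9.08 ± 0.08). The partner chain IFNGR2 read 7.18 ± 0.07. The transcription factor IRF1, itself an interferon-induced activator of class I genes, read 6.42, 6.59 and 6.60 (6.54 ± 0.10), within 0.13 of the bound. JAK2 (6.43 ± 0.12) was at the bound and fell below it on 1 array. IRF9 read 6.68 ± 0.19 and IRF2 read 7.73 ± 0.03. The type I receptor genes IFNAR1 (9.43 ± 0.03) and IFNAR2 (8.52 ± 0.02) and the kinase TYK2 (9.45 ± 0.06) were in the upper tertile. The interferon genes themselves were not detected, with 0 of 4 above the bound, from IFNA2 at 3.36 ± 0.20 to IFNL1 at 5.67 ± 0.09, IFNG being at 3.48 ± 0.37.

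**Figure D5:**
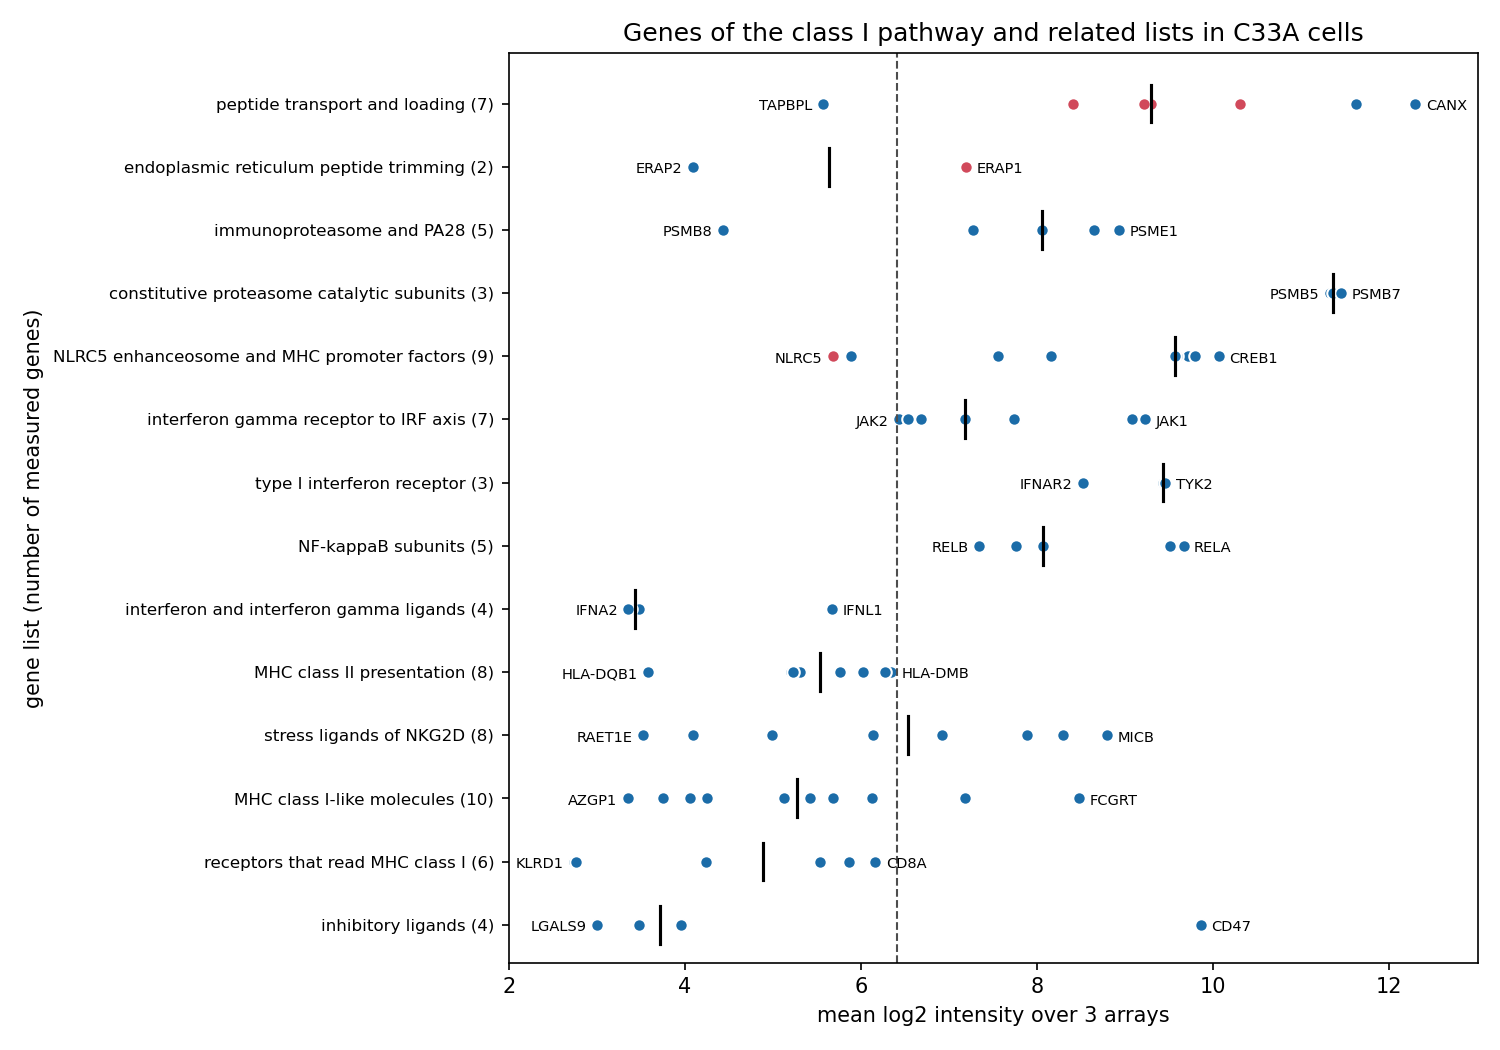
Mean log2 intensity over 3 arrays of each measured gene (points, class I members in red) of 14 lists, with a black bar at the median of the list, the silent-family bound (6.41) dashed, and the highest and lowest gene of each list named. Chaperones and constitutive proteasome genes lie far above the bound, whereas all genes for MHC class II presentation, interferons and receptors that read class I lie below it.

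Genes of the MHC class II pathway, which presents peptides taken up from outside and belongs to professional presenting cells, were in the range of the silent families. 0 of 8 measured genes passed the bound, with a list median of 5.53, from HLA-DQB1 at 3.58 ± 0.15 to HLA-DMB at 6.34 ± 0.14. HLA-DMB and HLA-DOA (6.28 ± 0.13) were the nearest below it, and HLA-DMB passed, as 1 of 8, when array 3 was left out. Since 56.5% of all genes passed, the contrast with the class I members was one of counts, 0 of 8 against 5 of 6, and was not tested.

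Molecules that share the class I fold were measured at low levels except for a few. Of 10 measured genes, 2 passed the bound, against 56.5% of all genes. They were FCGRT, the neonatal Fc receptor for IgG (8.35, 8.66 and 8.42, mean 8.48 ± 0.16), and HFE, the regulator of iron uptake (7.19 ± 0.13). Both form dimers with B2M. The CD1 genes, which present lipids, ranged from 3.75 for CD1B to 6.12 for CD1D, MR1 read 5.42 ± 0.10 and AZGP1 was the lowest at 3.35 ± 0.22. 4 of 8 ligands of NKG2D, the activating receptor of natural killer cells, passed the bound, a share near the 56.5% of all genes. These 4 were MICB (8.80 ± 0.09), ULBP3 (8.30 ± 0.08), MICA (7.89 ± 0.18) and RAET1G (6.92 ± 0.14). The lowest was RAET1E at 3.52 ± 0.04.

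Receptors by which lymphocytes read class I, such as CD8A (6.16 ± 0.20) and KLRD1 (2.75 ± 0.03), gave 0 of 6 above the bound, against 56.5% of all genes. Of 4 inhibitory ligands, CD47, which restrains phagocytes, was above it at 9.86 ± 0.04. CD274, which encodes PD-L1, read 3.48 ± 0.10 and PDCD1LG2 read 3.96 ± 0.20, both below the median level of the silent families. LGALS9 read 3.01 ± 0.21 on its own probe set, while those it shares with LGALS9B and LGALS9C read 5.55 and 5.71, still below the bound.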

How the data were processed

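The authors hybridized labelled DNA from each culture to 1 array, then applied Robust Multichip Average normalization (RMA) and oneChannelGUI. What they deposited is 1 log2 intensity for each probe set on each array, with no detection call. Versions of this software are not given here. Of 33297 probe sets, 19460 with 1 gene symbol in the platform annotation were averaged per gene, 1754 with several symbols were kept apart and 12083 are unnamed. Symbols were updated by Entrez identifier through the RefSeq table of GRCh38.p14 (18389 of 18417 genes matched). With 1 group of 3 arrays, levels are given as mean ± SD, and that number limits the precision. Genes were ranked into 10 deciles and 3 tertiles, and detection was set at the 95th percentile of the silent families. Every member is named, with the highest and lowest gene of each pathway list and any gene of a list of up to 10. Members and lists were chosen with earlier results of these data known, and BRD2 and the cell type markers were named after their values were seen. Promoter sequences are RefSeq's (GRCh38.p14), aligned with biopython 1.88. The summaries were tested on simulated data, with Python 3.11.15, numpy 2.4.6 and pandas 2.3.3.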

Additional observations from a re-analysis of the deposited data

How the results depend on the processing

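Leaving out any array, taking the highest or lowest probe set of a gene, centring arrays on their median, quantile normalization and keeping only genes with a protein-coding accession each left 5 of 6 members above the silent-family bound and 4 of 6 in the upper tertile. Counting shared probe sets for each of their genes gave 7 and 6 of 8 members. The bound itself mattered more. The 90th percentile (5.74) kept 5 of 6, the 99th (7.85) gave 4 and the olfactory receptor genes alone (5.44) gave 6. Of the pathway lists, MHC class II presentation had 0 of 8 above the bound, 0 to 1 when an array was left out, 1 with the highest probe set (HLA-DOA) and 4 with the 90th percentile or the olfactory receptor bound. Receptors that read class I had 2 and 3 of 6 with those bounds, class I-like molecules 4 of 10 and interferon ligands 1 of 4 with the olfactory receptor bound. At the 99th percentile, 0 of 2 trimming genes, 2 of 7 genes of the interferon gamma axis, 3 of 5 NF-kappaB subunits and 1 of 10 class I-like molecules passed. With shared probe sets counted, the bound rose to 6.92, 2 heavy chain genes passed and 4 genes of the interferon gamma axis did. With the highest probe set, TAP1 minus TAPBP was -0.31 and ERAP1 minus HLA-F/HLA-B was -0.18. The causes of these shifts were not tested beyond the move of the bound. Of 201 counts under alternatives, 187 stayed within 1.5 times the main count. These include the list of MHC class I heavy chains, which has 0 genes with a probe set of their own. Its count could move only where shared probe sets were counted. Arrays give no depth, and signal near the silent families limits what can be said of NLRC5, TAPBPL, ERAP2 and PSMB8.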
